A study of Rattus norvegicus with 24 samples.

Results

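Collagens are the structural proteins of the extracellular matrix, built from chains that wind around each other into a triple helix. Fibrillar collagens (types I, II, III, V, XI, XXIV and XXVII) assemble into the rope-like fibers of meninges, vessel walls and scars. Basement membrane collagens (type IV and type XVIII) form the sheets under endothelium and around the brain surface, and the remaining chains include the beaded filaments of type VI, fibril-associated chains and chains that span the membrane of neurons. In brain, most fibrillar collagen comes from fibroblasts of the meninges and of larger vessels, and little from the parenchyma itself.

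The members were every named locus whose gene symbol has the form Col, number, a, number. Of 26641 named loci, 42 matched, and Col20a1 accounted for a pair of them, of which the locus with the higher mean was kept. This left 41 collagen genes, of which 11 were fibrillar, 6 belonged to basement membranes and 24 were other collagens. Col4a2, Col15a1, Col21a1 and Col28a1 were not analysed here.

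Polyadenylated RNA was sequenced from adult male Sprague-Dawley rats 3 months after surgery. The TBI animals (n = 6) had received a lateral fluid-percussion injury through a craniectomy, and the sham-operated controls (n = 6) had the same anesthesia and surgery with no impact. Each rat gave perilesional cortex and ipsilateral thalamus, dissected from a single coronal slice, so the 4 groups hold 6 libraries each. The TBI animals had been selected on magnetic resonance images for a chronic inflammatory rim around the lesion, so the effects below describe that selection of rats.

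Values are normalized counts, that is fragments assigned to a locus divided by a size factor for the library. The libraries held between 30568928 and 54608919 fragments. A locus was tested in a comparison when its mean was at least 10, and differences were tested with limma on log2(normalized count + 1) across all named loci, adjusted by Benjamini-Hochberg and called under 0.05. Fold changes on this scale understate the change of low genes. Levels are compared between samples and not between genes, since transcript lengths were not used here.

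The regions matched their labels by the neuronal markers. Summed over 8 thalamus markers, sham thalamus libraries held 89199 to 119746 and sham cortex libraries 4699 to 5078, and 7 measured cortex markers ran the other way, at 64011 to 70614 in sham cortex and 7539 to 13914 in sham thalamus. A pair of thalamus libraries stood apart in collagens, that of TBI rat 45 and, to a lesser extent, that of sham rat 34. In 13 choroid plexus markers summed, the TBI thalamus library of rat 45 held 284469 and the other TBI thalamus libraries at most 2434. Among sham thalamus libraries the highest were rat 50 at 115939 and rat 34 at 73569, with a group median of 1613. In 15 markers of fibroblasts and meninges summed, rat 45 held 187814 in thalamus against at most 28794 in the other TBI libraries, and rat 34 held 58888 against at most 35224 in the other sham libraries. Results in thalamus are therefore given with and without the libraries of rats 45 and 34, and for sham rat 50 where it stood apart in collagens. Cortex libraries differed in these markers too. For choroid plexus, TBI rat 45 held 35444 in cortex against at most 1852 in the other TBI libraries. Sham rats 26 and 34 held 25651 and 12379, with a sham cortex median of 3158. For fibroblasts and meninges, rat 45 held 246802 in cortex against at most 127231 in the other TBI libraries.

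The upstream sequences of 6 collagens are shown because these genes carry the results: Col1a2 as the type I chain of the table of promoters, Col5a2, Col16a1 and Col23a1 as chains higher after TBI in both regions, Col4a1 as the basement membrane chain higher in thalamus, and Col18a1 as the chain whose injury effect separated the regions most among basement membrane collagens. Each is the 250 bases before the RefSeq transcription start on build GRCr8, written 5′ to 3′ along the gene's strand. Capitals mark 3 motifs on either strand, which are the CCAAT box, the GC box core GGGCGG and the TATAAA element. On the opposite strand the CCAAT box is read as ATTGG, and the GC box core is read as CCGCCC.
Col1a2, chr4:33518307-33518556, plus strand: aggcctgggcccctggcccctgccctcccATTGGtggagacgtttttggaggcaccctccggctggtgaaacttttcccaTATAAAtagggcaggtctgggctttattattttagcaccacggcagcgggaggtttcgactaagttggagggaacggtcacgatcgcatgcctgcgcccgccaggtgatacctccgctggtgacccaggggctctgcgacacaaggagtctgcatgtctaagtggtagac
Col5a2, chr9:55090152-55090401, minus strand: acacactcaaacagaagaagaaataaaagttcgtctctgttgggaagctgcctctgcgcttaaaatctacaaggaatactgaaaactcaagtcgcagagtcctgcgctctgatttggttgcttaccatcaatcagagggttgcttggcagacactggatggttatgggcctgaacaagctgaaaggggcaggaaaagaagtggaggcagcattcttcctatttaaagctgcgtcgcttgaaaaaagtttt
Col16a1, chr5:147672846-147673095, plus strand: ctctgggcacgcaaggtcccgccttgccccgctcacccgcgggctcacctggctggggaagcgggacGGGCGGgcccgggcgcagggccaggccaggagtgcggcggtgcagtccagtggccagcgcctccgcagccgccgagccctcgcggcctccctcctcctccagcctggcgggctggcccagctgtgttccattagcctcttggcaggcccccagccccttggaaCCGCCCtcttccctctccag
Col23a1, chr10:36050077-36050326, plus strand: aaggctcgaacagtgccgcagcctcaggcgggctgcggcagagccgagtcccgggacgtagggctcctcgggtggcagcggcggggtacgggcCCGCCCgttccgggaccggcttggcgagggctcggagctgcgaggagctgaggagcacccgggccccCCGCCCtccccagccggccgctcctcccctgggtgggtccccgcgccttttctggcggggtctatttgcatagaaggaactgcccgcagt
Col4a1, chr16:84885347-84885596, plus strand: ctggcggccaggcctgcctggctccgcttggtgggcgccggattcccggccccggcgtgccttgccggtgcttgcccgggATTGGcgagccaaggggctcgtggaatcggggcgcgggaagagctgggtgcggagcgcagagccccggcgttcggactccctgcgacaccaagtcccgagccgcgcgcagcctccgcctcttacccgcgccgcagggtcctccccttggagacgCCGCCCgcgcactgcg
Col18a1, chr20:11473395-11473644, plus strand: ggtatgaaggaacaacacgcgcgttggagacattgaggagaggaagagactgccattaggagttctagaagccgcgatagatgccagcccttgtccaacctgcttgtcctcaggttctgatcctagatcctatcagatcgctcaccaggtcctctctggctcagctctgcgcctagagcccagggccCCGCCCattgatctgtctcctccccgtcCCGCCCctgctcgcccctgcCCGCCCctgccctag

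Of the 41 collagens, 32 had an entry in the promoter table. GGGCGG, the core of the GC box, was present in 18 of these (56.2%) against 30.5% of 33469 rat windows of the same length. CCAAT was present in 9 (28.1%) against 34.02%, and TATAAA in 4 (12.5%) against 12.9%. The Col1a2 window holds a CCAAT on the minus strand and a TATAAA, and the Col5a2 window holds none of these motifs. A match describes these letters in this window and is not a measured binding site.

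Collagen transcripts were broadly higher in perilesional cortex of TBI animals than in sham-operated controls. Of 39 collagens tested, 20 were upregulated, where 14.3% of all loci tested were called higher, and 2 were downregulated, where 14.9% were called lower. In a single fit of all 24 libraries, which pools the spread of both regions, 11 rose, where 13.7% of all loci did, and 2 fell, where 14.4% did. The calls of Col1a1, Col1a2, Col3a1, Col4a6, Col5a1, Col6a2, Col6a3, Col7a1 and Col8a2 were lost in that fit, with adjusted p between 0.0521 and 0.306. The median log2 fold change was 0.42 over the collagens and -0.01 over all loci. By class, 7 of 11 fibrillar, 3 of 6 basement membrane and 10 of 22 other collagens rose, with medians of 0.46, 0.38 and 0.26. In 7 collagens every TBI library lay above every sham library, where this held for 7.02% of all loci tested. In bulk tissue, more cells that make a collagen and more collagen RNA per cell cannot be told apart.

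**Figure D1:**
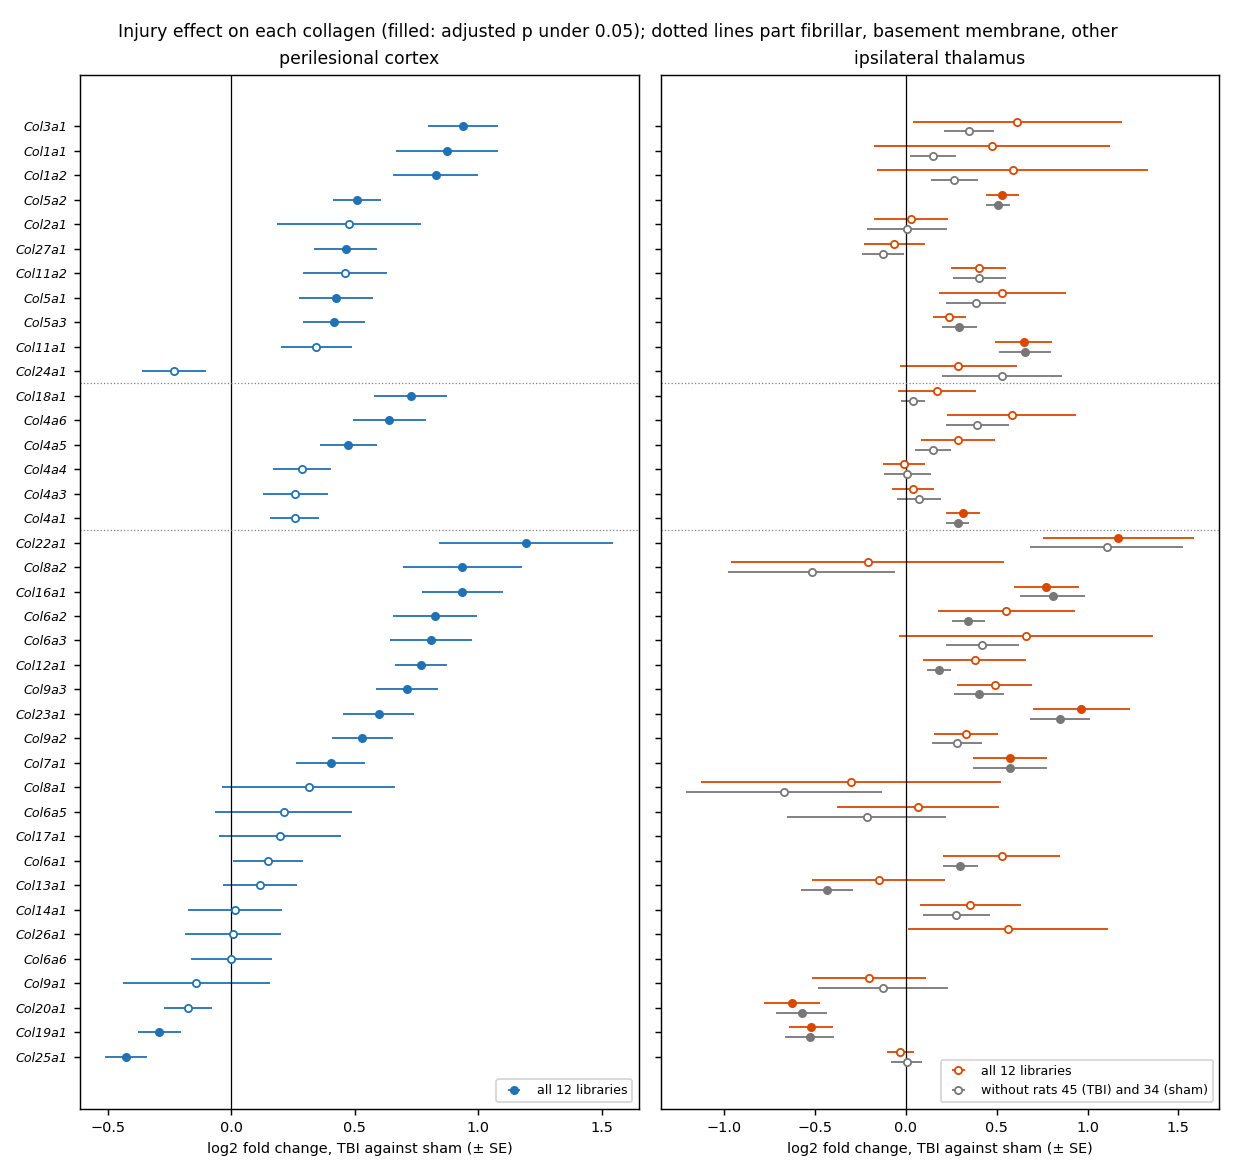
Log2 fold change of TBI against sham ± SE for each of 39 collagens tested in perilesional cortex (left, 12 libraries) and ipsilateral thalamus (right, 12 libraries in orange, and in gray without the TBI library of rat 45 and the sham library of rat 34), with filled points where the adjusted p was under 0.05. In cortex 20 points are filled to the right of 0, and in thalamus 7. Error bars in thalamus are far wider for Col1a1, Col1a2, Col3a1, Col6a1, Col6a2 and Col6a3 until the 2 libraries are left out. Those of Col8a1 and Col8a2 are the widest (SE 0.82 and 0.75) and stay wide without the 2 libraries (0.54 and 0.46).

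Among fibrillar collagens, the chains of types I and III, the main components of meningeal and scar fibers, showed the largest changes in cortex. Col3a1, on chromosome 9 at 51689491-51725414 in the coordinates of the files (the build is not stated in them), ranged from 1585 to 2003 in sham cortex (median 1781) and from 2407 to 5334 in TBI cortex (median 3476). The groups did not overlap, and the log2 fold change was 0.94 ± 0.14 (SE, n = 6 per group, limma adjusted p = 0.000284). In the single fit of all 24 libraries its adjusted p was 0.124, with 0.306 for Col1a2 and 0.219 for Col1a1.

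Col1a2, the second chain of type I collagen, ranged from 2645 to 3866 in sham cortex (median 3590) and from 4393 to 9723 in TBI cortex (median 5525), with no overlap. Its log2 fold change was 0.83 ± 0.17 (limma adjusted p = 0.00264). The interval listed for the Col1a2 locus is shared with 8 other named loci, so its boundaries are uncertain. The same limit applies to Col9a2, Col4a6 and Col27a1, whose intervals are shared with 4, 1 and 1 other named loci. Col1a1 ranged from 1141 to 2034 (median 1617) in sham and from 1890 to 4695 (median 2943) in TBI cortex. In Col1a1, 4 of 6 TBI libraries lay above every sham library, and the log2 fold change was 0.87 ± 0.21 (limma adjusted p = 0.00581).

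Col5a2, a type V chain that helps to nucleate type I fibers, was the collagen that rose without overlap in both regions. In cortex it ranged from 694 to 935 in sham (median 790) and from 940 to 1366 in TBI animals (median 1177). In thalamus it ranged from 892 to 1154 (median 954) and from 1241 to 1813 (median 1370). The log2 fold change was 0.51 ± 0.10 in cortex (limma adjusted p = 0.00141) and 0.53 ± 0.09 in thalamus (limma adjusted p = 0.000536). Col5a1, Col5a3 and Col27a1 also rose in cortex, with log2 fold changes of 0.42 to 0.46, while Col2a1, Col11a1, Col11a2 and Col24a1 did not pass the test there.

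Among basement membrane collagens, Col18a1, whose C-terminal fragment is endostatin, changed most in cortex. It ranged from 720 to 1012 in sham (median 849) and from 1075 to 2279 in TBI cortex (median 1374), with no overlap. The log2 fold change was 0.73 ± 0.15 (limma adjusted p = 0.0023). The highest value was that of rat 45, and without this rat the log2 fold change was 0.59 with the call kept.

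The X-linked type IV chains Col4a5 and Col4a6, which lie side by side on the chromosome, both rose in cortex. Col4a6 ranged from 124 to 176 in sham (median 139) and from 171 to 323 in TBI cortex (median 232), with 4 of 6 TBI libraries above every sham library. Its log2 fold change was 0.64 ± 0.15 (limma adjusted p = 0.00478). Col4a5 ranged from 651 to 845 (median 721) and from 787 to 1390 (median 985), and its log2 fold change was 0.47 ± 0.11 (limma adjusted p = 0.00614). Col4a1, the common chain of most vascular basement membranes, ranged from 1437 to 1925 (median 1803) and from 1646 to 2530 (median 2136). The Col4a1 groups overlapped, with a log2 fold change of 0.26 ± 0.10 that did not pass the test (limma adjusted p = 0.0623) but did so without the TBI library of rat 63 (0.33, adjusted p = 0.00923).

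Among the other collagens, the largest called changes in cortex were those of Col22a1, Col8a2 and Col16a1. Col16a1, a fibril-associated chain, ranged from 638 to 1170 in sham (median 1046) and from 1198 to 2413 in TBI cortex (median 1926), with no overlap and a log2 fold change of 0.94 ± 0.16 (limma adjusted p = 0.000745). Col8a2, a short-chain collagen of endothelial and corneal basement layers, ranged from 235 to 281 (median 265) and from 258 to 1149 (median 483), with 5 of 6 TBI libraries above every sham library. Its log2 fold change was 0.94 ± 0.24 (limma adjusted p = 0.00908), and the value of 1149 was that of rat 45. Col22a1 was close to the test minimum, at 3.23 to 12.9 in sham (median 9.01) and 8.33 to 36.6 in TBI cortex (median 18.7). The log2 fold change of Col22a1 was 1.19 ± 0.35 (limma adjusted p = 0.0200).

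The type VI chains diverged in their calls. Col6a2 and Col6a3 rose, with log2 fold changes of 0.82 ± 0.17 and 0.81 ± 0.17, while the change of Col6a1 was 0.15 ± 0.14 and did not pass the test (limma adjusted p = 0.458). Whether the chains differed from each other was not tested. Col12a1 rose with no overlap (0.77 ± 0.11, limma adjusted p = 0.000128), and Col7a1, Col9a2, Col9a3 and Col23a1 also rose. The collagens that fell were Col25a1, a membrane-spanning collagen of neurons, and Col19a1, a fibril-associated chain known from interneurons. Col25a1 ranged from 771 to 980 in sham (median 918) and from 561 to 794 in TBI cortex (median 671), and fell by 0.42 on the log2 scale (SE 0.08, limma adjusted p = 0.00197). Col19a1 ranged from 1802 to 2297 (median 1971) and from 1329 to 1927 (median 1670), and fell by 0.29 (SE 0.09, limma adjusted p = 0.0214). Neither pair of groups was fully apart, and the call of Col19a1 was lost without the sham cortex library of rat 34 (adjusted p = 0.0515).

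Without rat 45 in cortex, 18 collagens were called higher, where 11.8% of all loci were, and 2 lower, where 12.2% were. The calls lost were those of Col5a1 and Col7a1.

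**Figure D2:**
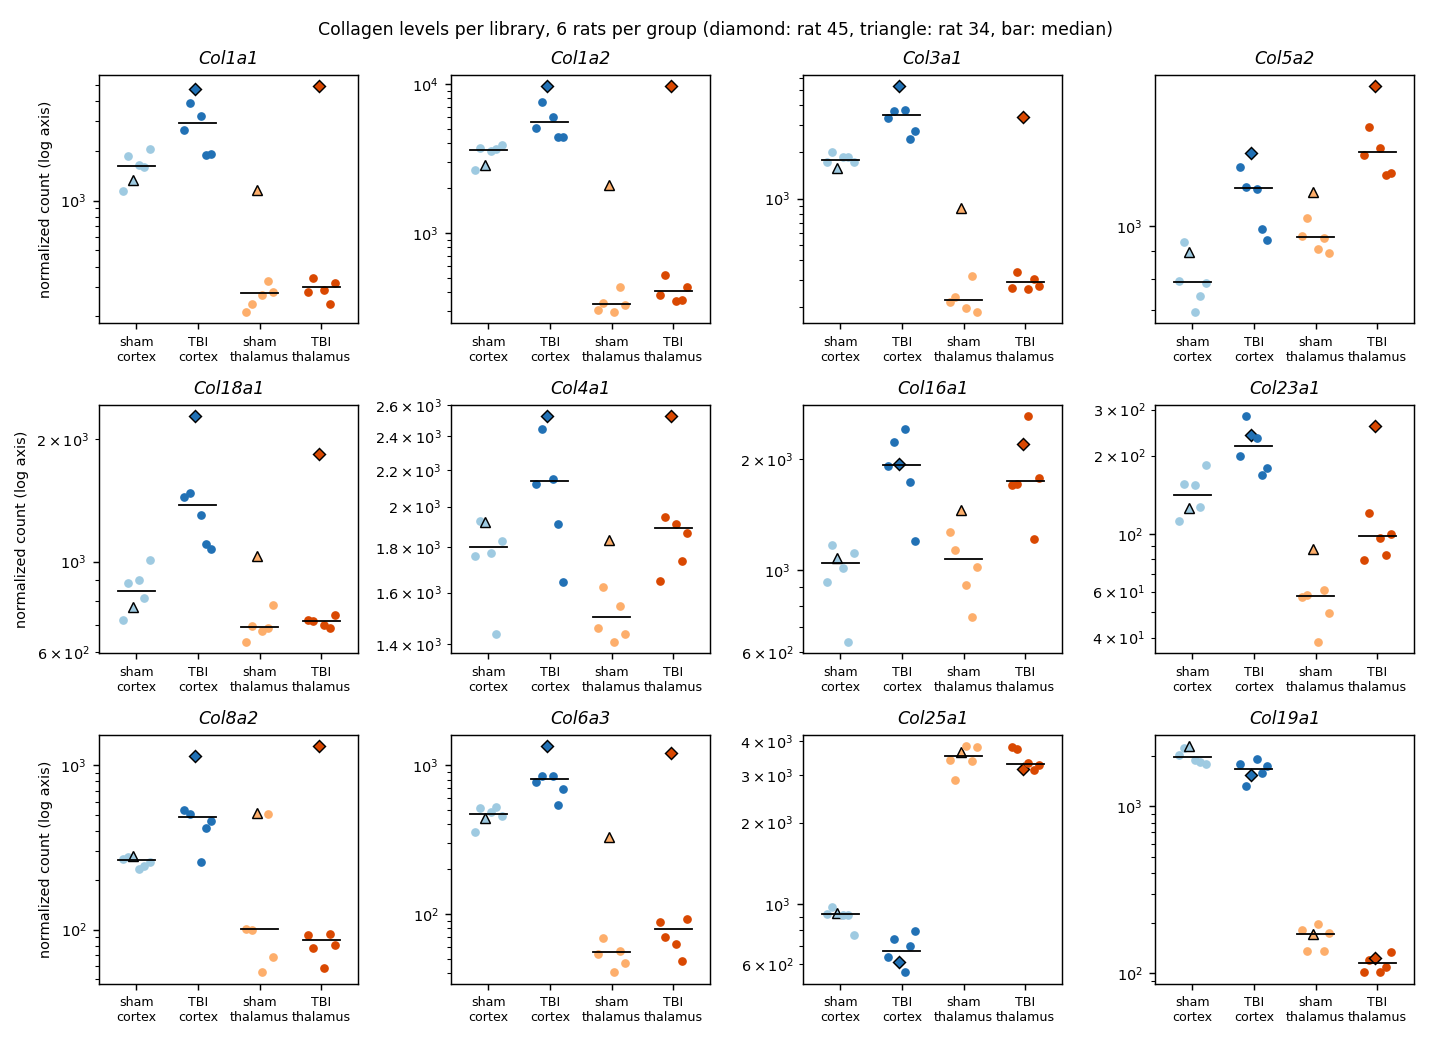
Normalized count of 12 collagens in each library on log axes, with 6 rats in each of the 4 groups, a bar at the group median, diamonds for rat 45 and triangles for rat 34. Col5a2 is higher in all TBI libraries of both regions, and in thalamus Col1a1, Col1a2, Col3a1 and Col6a3 are high in rat 45 and rat 34 alone, with medians of TBI and sham close together.

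In ipsilateral thalamus fewer collagens passed the test, and the mean differences of the type I and III chains rested on a single TBI library. Of 37 collagens tested, 7 rose, where 14.5% of all loci were called higher, and 2 fell, where 20.9% were called lower. By class, 2 of 11 fibrillar, 1 of 6 basement membrane and 4 of 20 other collagens rose. The median log2 fold change was 0.36 over the collagens and -0.02 over all loci. With TMM scaling, 9 collagens rose and 2 fell, and the calls over all loci went from 2259 higher and 3257 lower to 2796 higher and 2357 lower.

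The collagens that rose in thalamus were Col4a1, Col5a2, Col7a1, Col11a1, Col16a1, Col22a1 and Col23a1. Col11a1, a type XI chain, ranged from 262 to 476 in sham (median 377) and from 429 to 732 in TBI thalamus (median 573). Its groups overlapped, and its log2 fold change was 0.65 ± 0.16 (limma adjusted p = 0.00521). Col16a1 ranged from 746 to 1459 (median 1075) and from 1212 to 2615 (median 1741), with 5 of 6 TBI libraries above every sham library. The log2 fold change of Col16a1 was 0.77 ± 0.18 (limma adjusted p = 0.00394).

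Col23a1, a membrane-spanning collagen, rose in both regions. It ranged from 38.4 to 87.6 in sham thalamus (median 57.8) and from 79.1 to 259 in TBI thalamus (median 98.3), with a log2 fold change of 0.97 ± 0.27 (limma adjusted p = 0.0116). In cortex it ranged from 112 to 184 (median 141) and from 169 to 284 (median 217), with a log2 fold change of 0.60 ± 0.14 (limma adjusted p = 0.00629). In each region 4 of 6 TBI libraries lay above every sham library.

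Col4a1 ranged from 1407 to 1835 in sham thalamus (median 1502) and from 1647 to 2529 in TBI thalamus (median 1890). In Col4a1, 4 of 6 TBI libraries lay above every sham library, and the log2 fold change was 0.31 ± 0.09 (limma adjusted p = 0.0184). Col22a1 ranged from 2.10 to 16.2 (median 10.7) and from 15.1 to 40.6 (median 17.1), and its log2 fold change of 1.17 ± 0.42 (limma adjusted p = 0.0409) was lost when rat 45 was left out (adjusted p = 0.0881). Leaving out any of 6 other libraries also ended this call, those of TBI rats 24, 52 and 63 and of sham rats 38, 50 and 55, with adjusted p between 0.0513 and 0.0867.

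Col19a1 fell in both regions, and in thalamus all TBI libraries lay below all sham libraries. It ranged from 136 to 198 in sham thalamus (median 173) and from 101 to 135 in TBI thalamus (median 115), and fell by 0.52 on the log2 scale (SE 0.12, limma adjusted p = 0.00402). Col20a1 also fell in thalamus (by 0.63, SE 0.16, limma adjusted p = 0.00624), from a median of 244 to 165. Its other locus, listed over the same interval, had a median of 97.3 in sham and 106 in TBI thalamus, so the direction depends on which locus stands for Col20a1.

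The type I, III and VI chains did not pass the test in thalamus. Col1a1 ranged from 213 to 1159 in sham (median 275) and from 239 to 4918 in TBI thalamus (median 303). The value of 4918 was that of rat 45 and the other TBI libraries reached at most 342, while the value of 1159 was that of rat 34 and the other sham libraries reached at most 328. Its log2 fold change was 0.47 ± 0.65 (limma adjusted p = 0.611), and without rat 45 it was -0.21 (adjusted p = 0.687).

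Col1a2 behaved alike, at 295 to 2108 in sham (median 333) and 350 to 9702 in TBI thalamus (median 406), with a log2 fold change of 0.59 ± 0.75 (limma adjusted p = 0.577) that was -0.17 without rat 45. Col3a1 ranged from 186 to 873 (median 224) and from 261 to 3347 (median 288), and its log2 fold change went from 0.61 ± 0.58 (limma adjusted p = 0.439) to 0.02 without rat 45. Col18a1 ranged from 634 to 1032 (median 690) and from 689 to 1834 (median 716), and its log2 fold change went from 0.17 ± 0.21 (limma adjusted p = 0.570) to -0.06. In each of these chains rat 45 was the only TBI library above every sham library.

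Without rat 45, which ended the calls of Col7a1 and Col22a1, 5 collagens rose, where 13.1% of all loci were called higher, and 3 fell, where 19.0% were called lower, with a median log2 fold change of 0.07. Without rat 45 in TBI and rat 34 in sham thalamus, an alternative chosen after seeing the data, 11 of 36 collagens rose, where 13.3% of all loci were called higher, and 3 fell, where 18.2% were called lower. The collagens gained as higher were Col5a3, Col6a1, Col6a2, Col9a3 and Col12a1, with log2 fold changes of 0.18 to 0.40. Col13a1 was gained as lower, at -0.43, and Col22a1 lost its call. Col5a2 stood with no overlap. Under this alternative Col1a1 was at 0.15 (limma adjusted p = 0.403) and Col1a2 at 0.27 (adjusted p = 0.134). Col3a1 was at 0.35 (adjusted p = 0.0689) and Col18a1 at 0.04 (adjusted p = 0.685). All TBI libraries lay above all sham libraries in Col5a2 alone of the 37 collagens, where this held for 7.46% of all loci tested.

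The sham thalamus library of rat 50 was the highest of its group in Col8a1 (471) and close to that of rat 34 in Col8a2 (506 and 516), with group medians of 50.7 and 100. Without rat 50, the log2 fold change of Col8a1 went from -0.30 ± 0.82 to 0.16 ± 0.79 and that of Col8a2 from -0.21 ± 0.75 to 0.15 ± 0.75, none past the test (limma adjusted p from 0.811 to 0.902). Over the collagens, 5 then rose, where 12.6% of all loci did, and 2 fell, where 17.8% did, with the calls of Col7a1 and Col22a1 lost.

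Rat 45 exceeded the median of the other 5 TBI thalamus libraries by more than 2-fold in 19 of 37 collagens, where 4.65% of 15564 loci did so. In cortex the same held for 2 of 39 collagens, Col8a1 and Col8a2, where 1.56% of 15493 loci did so. The largest ratios in thalamus were 25.4 for Col1a2, 21.6 for Col8a1, 17.4 for Col6a3, 17.1 for Col1a1, 16.3 for Col8a2 and 12.3 for Col3a1. Of the 19 collagens, 13 were also lower in sham thalamus than in sham cortex, where 17 of 38 collagens and 27.9% of all loci were. The same share among all loci over 2-fold in rat 45 is not given here. Across the 37 collagens, the log2 of the ratio in rat 45 and the log2 excess of sham cortex over sham thalamus had Pearson's r = 0.51 and Spearman's rho = 0.56, as a description across genes that share libraries. The correlation over all loci is not given here, so it is not shown to be particular to collagens. Col19a1 and Col24a1, both far lower in thalamus, were not raised in rat 45, with ratios of 1.12 and 0.55, and Col8a1 was raised while not called between the regions.

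**Figure D3:**
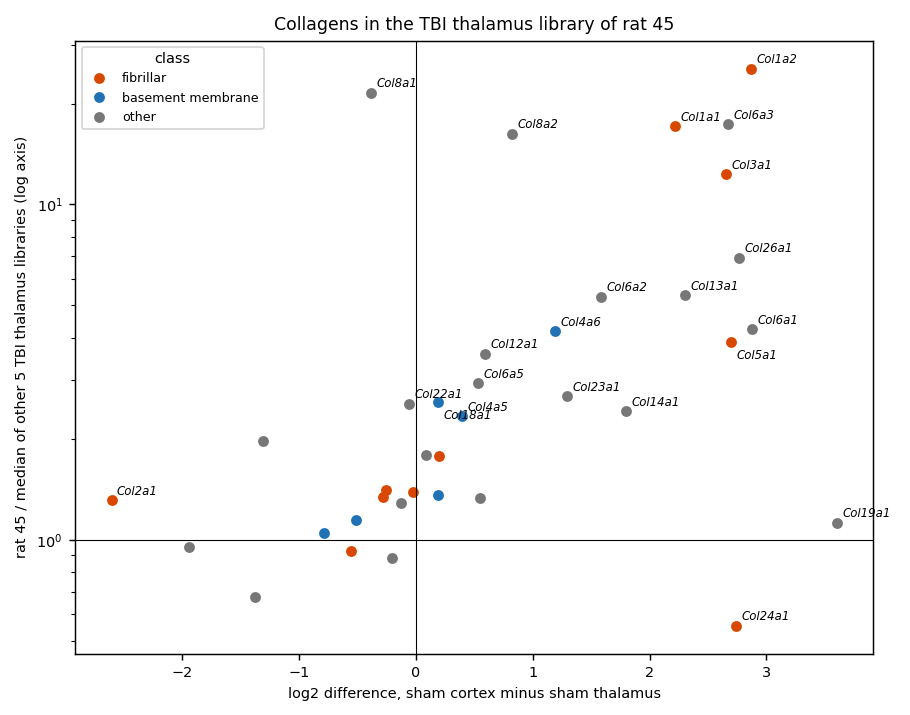
Ratio of rat 45 to the median of the other 5 TBI thalamus libraries (log axis) against the log2 difference of sham cortex minus sham thalamus, for 37 collagens colored by class. Col1a2, Col6a3, Col1a1 and Col3a1 combine ratios over 12 with lower levels in sham thalamus, and Col8a1 is high in rat 45 without such a difference.

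Marker lists of cell types that the tissue could hold differed in how they moved beside the collagens, and their counts can be read against the 14.3% of all loci called higher and 14.9% lower in cortex, and 14.5% and 20.9% in thalamus. In cortex, 8 of 15 markers of fibroblasts and meninges rose and none fell, their summed level ranged from 70392 to 96227 in sham and from 94695 to 246802 in TBI libraries, and none of the defining markers was at 0 in every library. Of the 13 choroid plexus markers, none was called in cortex, and 3 of 12 endothelial and 4 of 10 pericyte and smooth muscle markers rose. In thalamus none of the 15 fibroblast markers and none of the 13 choroid plexus markers passed the test, while 5 of 12 endothelial and 7 of 10 pericyte and smooth muscle markers rose. Without the thalamus libraries of rats 45 and 34, 3 of 14 fibroblast markers rose, where 13.3% of all loci did. No choroid plexus marker passed the test in that fit. Microglial markers rose in 9 of 10 genes in cortex and 10 of 10 in thalamus, and neuronal markers fell in 6 of 9 and 8 of 9. Astrocyte markers rose in 6 of 9 in each region, and fell in 2 of 9 in cortex. Of the oligodendrocyte markers, 2 of 7 rose in cortex and none of 7 in thalamus passed the test. Thalamic neuron markers fell in 6 of 8 in thalamus and in 3 of 8 in cortex, where 1 rose, and cortical neuron markers fell in 3 of 7 in cortex and 2 of 5 in thalamus. The part of cell composition, and of meninges or choroid plexus taken along at dissection, in the collagen differences was not tested.

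**Figure D4:**
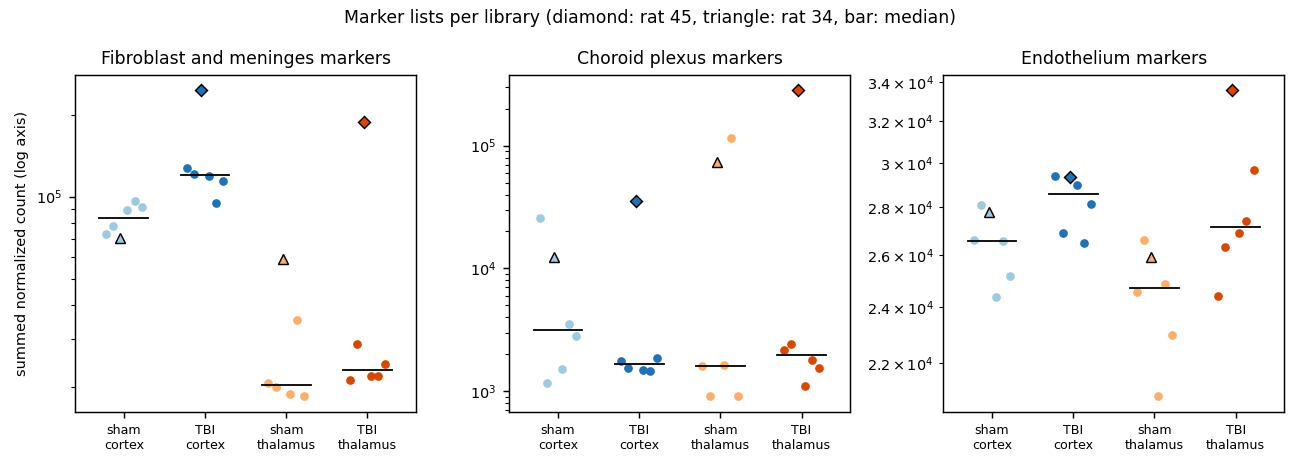
Summed normalized count, on log axes, of 15 markers of fibroblasts and meninges, 13 of choroid plexus and 12 of endothelium in each library, with 6 rats per group, a bar at the median, diamonds for rat 45 and triangles for rat 34. Rat 45 is the highest TBI library for fibroblast and choroid plexus markers in both regions, and sham thalamus holds a pair of libraries high in choroid plexus markers.

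The effect of injury was compared between regions as the thalamic minus the cortical log2 fold change. Of 38 collagens tested, 1 was called, where 7.26% of all loci were called in either direction. This was Col25a1, whose fall in cortex stood beside a change of -0.03 ± 0.08 in thalamus (limma adjusted p = 0.790), at 2859 to 3821 in sham (median 3518) and 3130 to 3812 in TBI thalamus (median 3283). The difference of the effects was 0.39 ± 0.12 (limma adjusted p = 0.0387). Since both regions came from the same rats, the fit was repeated with the rat as a block, and the adjusted p of Col25a1 was then 0.0543, while Col18a1 was called, with a difference of -0.55 ± 0.15 (adjusted p = 0.0349). The unblocked adjusted p of Col18a1 was 0.243. The call of Col25a1 was also lost without any of 13 single libraries, with adjusted p between 0.0527 and 0.0703: the sham cortex libraries of rats 26, 32, 34, 38 and 50, the sham thalamus libraries of rats 26, 32 and 50, the TBI cortex libraries of rats 22, 45 and 52 and the TBI thalamus libraries of rats 22 and 24.

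Without rat 45, 3 collagens were called, where 6.10% of all loci were. These were Col12a1, Col18a1 and Col27a1, each with the smaller effect in thalamus, with differences of -0.64, -0.64 and -0.66. Rat 45 had been set apart by its Col18a1. A call of Col18a1 in a fit without its libraries therefore draws on the value behind that choice and adds no support. Without the thalamus libraries of rats 45 and 34 the calls were Col12a1, Col18a1 and Col25a1, where 6.29% of all loci were called. For the other collagens, a call in cortex and none in thalamus is not shown to be a difference between regions. Over 37 collagens tested in both regions, 5 rose in both (Col5a2, Col7a1, Col16a1, Col22a1 and Col23a1), 1 fell in both (Col19a1), and none moved in opposite directions past the threshold.

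In sham rats, collagens were called between regions about as often as loci in general, at 25 of 38 against 61.4% of all loci in either direction. Of the 38, 17 were lower in thalamus, where 27.9% of all loci were, and 8 were higher, where 33.5% were. In 14 collagens all sham thalamus libraries lay below all sham cortex libraries, where this held for 19.1% of all loci, and in 7 they lay above, where this held for 23.7%. Col1a2 had a log2 difference of -2.87 ± 0.58 (limma adjusted p = 0.000136), Col3a1 -2.66 ± 0.45 (adjusted p = 1.42e-05) and Col1a1 -2.22 ± 0.52 (adjusted p = 0.000649). Col6a1 (-2.88 ± 0.27) and Col6a3 (-2.67 ± 0.55) were similarly low, and Col19a1 was lowest relative to cortex, at -3.60 ± 0.10. Fibroblast markers moved with these chains, with 13 of 15 lower in sham thalamus and none higher. Without the thalamus libraries of rats 45 and 34, 20 collagens were lower and 8 higher, where 4382 and 5164 of 15664 loci were. With the rat as a block, 19 were lower and 9 higher, where 4530 and 5371 of 15678 loci were.

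The collagens higher in sham thalamus were Col2a1 (2.60 ± 0.26), Col25a1 (1.94 ± 0.08), Col20a1, Col9a3, Col4a4, Col5a3, Col4a3 and Col5a2. The other Col20a1 locus, over the same interval, was lower in sham thalamus without overlap (-0.68 ± 0.14, limma adjusted p = 0.000143), so this direction too depends on the locus. Col2a1, the fibrillar collagen of cartilage, held 90.3 to 129 in sham thalamus (median 115) and 6.70 to 26.4 in sham cortex (median 22.5). Col4a3 and Col4a4, neighbors on chromosome 9 that start close together on opposite strands, were both higher, by 0.51 ± 0.13 and 0.79 ± 0.12. Basement membrane collagens as a class were split, with 2 of 6 higher and 1 lower, whereas 11 of 21 other collagens were lower and 3 higher, and 5 of 11 fibrillar collagens were lower and 3 higher.

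Of the enzymes and chaperones that modify, fold and cross-link collagen chains, 19 of 30 tested rose in cortex, where 14.3% of all loci did, and 2 fell, where 14.9% did. The remaining genes did not pass the test, and the median log2 fold change was 0.33. The largest were Pcolce, an enhancer of procollagen cleavage (0.69 ± 0.15, limma adjusted p = 0.00373), Loxl4, a lysyl oxidase (0.65 ± 0.14, adjusted p = 0.00371), and Adamts2, the procollagen N-proteinase (0.64 ± 0.15, adjusted p = 0.00604). Serpinh1, the collagen chaperone HSP47, ranged from 2001 to 2732 in sham (median 2441) and from 2550 to 5272 in TBI cortex (median 3008), and rose by 0.44 ± 0.14 (adjusted p = 0.0303). Lox (-0.06 ± 0.18) and P4ha1, a prolyl hydroxylase subunit (-0.13 ± 0.08), did not pass the test.

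In thalamus 10 of 31 synthesis genes rose, where 14.5% of all loci did, and 3 fell, where 20.9% did. Without the thalamus libraries of rats 45 and 34, 9 rose, where 13.3% of all loci did, and 3 fell, where 18.2% did. Adamts2 fell there, from 368 to 514 in sham (median 444) to 160 to 314 in TBI animals (median 199), with no overlap and a log2 fold change of -1.08 ± 0.15 (limma adjusted p = 7.8e-05). In cortex it ranged from 323 to 447 in sham (median 355) and from 405 to 850 in TBI animals (median 565). The effects of injury on Adamts2 differed by -1.72 ± 0.22 between the regions (limma adjusted p = 3.5e-05). Bmp1, the procollagen C-proteinase, rose in both regions, by 0.38 ± 0.08 in cortex and 0.64 ± 0.09 in thalamus, and Crtap, of the prolyl 3-hydroxylation complex, rose by 0.48 ± 0.09 and 0.54 ± 0.12.

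Of the genes listed as collagen receptors, 6 of 11 tested rose in cortex, where 14.3% of all loci did, and 5 of 10 in thalamus, where 14.5% did, and none fell. The list was written from general knowledge, and whether its members, Cd93 among them, bind collagen was not tested. Mrc2, the endocytic collagen receptor, rose in cortex (0.87 ± 0.14, limma adjusted p = 0.000444) and in thalamus (0.59 ± 0.21, adjusted p = 0.0380). Without rat 45 the highest thalamic change among the 10 receptors tested was 0.40, below that of Mrc2 with all libraries. Without the thalamus libraries of rats 45 and 34 it was 0.51. Whether the call of Mrc2 held in these fits is not given here. Ddr1, a tyrosine kinase receptor for collagen, rose by 0.71 ± 0.09 and 0.33 ± 0.08. Itga10, an integrin subunit, rose in cortex (0.71 ± 0.17) and was too low to test in thalamus. Itgb1, the common integrin beta subunit, rose in thalamus (0.37 ± 0.07, adjusted p = 0.00134), as did Cd93 (0.37 ± 0.11, adjusted p = 0.0206), and in cortex the change of Itgb1 was 0.09 ± 0.07.

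Of the matrix partners that bind collagen, 12 of 19 tested rose in cortex, where 14.3% of all loci did, and none fell, where 14.9% did, with a median log2 fold change of 0.56. These included Thbs1 (0.92 ± 0.22), Dcn, decorin (0.86 ± 0.16), and Lum, lumican (0.78 ± 0.13). Dcn, Lum and Ogn are also on the list of fibroblast markers. In thalamus 3 of 19 rose, near the 14.5% of all loci, and 1 fell, where 20.9% of all loci did. Without rats 45 and 34, 7 rose, where 13.3% of all loci did. Postn, periostin, rose there from 11.4 to 26.3 in sham (median 16.6) to 29.1 to 87.4 in TBI animals (median 51.9), with no overlap and a log2 fold change of 1.48 ± 0.28 (limma adjusted p = 0.00107). In cortex its change was -0.23 ± 0.14, and the effects differed by 1.71 ± 0.32 (adjusted p = 0.00168). Tnxb, tenascin-X, rose in both regions (0.66 ± 0.21 in cortex and 0.70 ± 0.17 in thalamus), and Comp fell in thalamus (by 0.99, SE 0.16, adjusted p = 0.000302).

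The collagens left out of tests were low. Col10a1 and Col6a4 were under the minimum in all comparisons, with at most 8.49 and 14.2 in any library. Col17a1 and Col6a6 were tested in cortex alone between TBI animals and sham-operated controls. The remaining uncalled chains had log2 fold changes between -0.23 and 0.48 in cortex.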

How the data were processed

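Messenger RNA of 24 libraries (2 regions of 6 injured and 6 sham rats) was analysed. The authors deposited gene-level signal values, namely fragment counts divided by a size factor per library, made with TopHat2 2.0.11, Bowtie2 2.2.2 and Cufflinks 2.2.1, with Rnor_5.0 named in the submitters' processing notes. The study's methods name RGSC3.4 as the genome for alignment and Rnor_5.0 for annotation. The files do not say on which of these the listed coordinates lie. Values were whole multiples of a step (tolerance 0.1) in at least 99.97% of cases in each library. Fragments were used for 23 libraries, without the sham thalamus library of rat 55, although its values met the same share. edgeR's quasi-likelihood test on the fragments of these 23 libraries called 4435 loci in cortex and 4183 in thalamus. limma 3.58.1 (R 4.3.3) was fitted on log2(value + 1) over named loci with a mean of at least 10, with cortex and thalamus separately and all 24 libraries for the comparison of effects and of regions. A share of 37.1% of loci had no name and was left out. Same-rat deviations correlated with a median of 0.19 (0.0039 to 0.57, over 0.1 in 10 of 12 rats), and the pairing comes from shared animals. The members and lists were chosen with earlier results of these data known. Ranges and values are given for every collagen called in both regions with no overlap in at least 1, called between regions, or among the 3 largest called changes of its class, for Col18a1, Col1a1, Col1a2, Col3a1 and Col4a1, and for the 3 largest of each partner list with Serpinh1, Lox, P4ha1, Ddr1 and Itgb1; others named were chosen after their values were seen. The scripts were tested on simulated data.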

Additional observations from a re-analysis of the deposited data

Results flagged for a closer look

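A library far from the other 5 of its group was looked for in 152 groups of 6 (each tested collagen in each group), and 39 were found. The limit used is passed by about 1 in 20 groups of independent normal values. Collagens share libraries, so the 39 are not independent finds and are not compared with that rate. Rat 45 had been set apart beforehand by its Col18a1. Of these, 21 were the TBI thalamus library of rat 45, each with a high value. These were, in normalized counts, Col12a1 (2148), Col13a1 (240), Col14a1 (118), Col18a1 (1834), Col1a1 (4918), Col1a2 (9702), Col22a1 (40.6), Col23a1 (259), Col26a1 (63), Col27a1 (1634), Col3a1 (3347), Col4a1 (2529), Col4a5 (1388), Col4a6 (315), Col5a1 (706), Col6a1 (1407), Col6a2 (1877), Col6a3 (1211), Col8a1 (978), Col8a2 (1309) and Col9a3 (2519). The sham thalamus library of rat 34 accounted for 11, again each high, namely Col12a1 (841), Col13a1 (98.9), Col18a1 (1032), Col1a1 (1159), Col1a2 (2108), Col26a1 (27.5), Col3a1 (873), Col5a1 (297), Col6a1 (444), Col6a2 (620) and Col6a3 (331).

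In TBI cortex rat 45 was far above the others in Col18a1 (2279), Col8a1 (326) and Col8a2 (1149), and rat 24 in Col17a1 (26.6). In sham cortex rat 26 was high in Col8a1 (116), while rat 50 was low in Col4a1 (1437) and rat 55 in Col25a1 (771). The effect of injury on Col25a1 differed between regions by 0.39 on the log2 scale (limma adjusted p = 0.0387) without the rat as a block, and with the block the adjusted p was 0.0543, so the call was lost.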

How the results depend on the processing

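The number of collagens called in cortex was 22, and 13 when all 24 libraries entered a single fit. In thalamus it was 9, with 5 at an adjusted p under 0.01 and 14 without the libraries of rats 45 and 34. Leaving out 1 library at a time gave 20 to 27 in cortex and 7 to 12 in thalamus. In the comparison of sham regions it gave 24 to 27, where the main fit gave 25. For the difference of effects between regions it was 1, with 0 without a filter on low values and at an adjusted p under 0.01. It was 3 without rat 45 in both regions, and 3 without the thalamus libraries of rats 45 and 34. With the replicate block and both regions of rats 45 and 34 left out it was also 3, and leaving out 1 library at a time gave 0 to 4. The replicate block left the count at 1 with Col18a1 in place of Col25a1, and gave 28 collagens between sham regions. Without rat 45, or its thalamus library alone, the thalamic log2 fold changes of Col18a1, Col1a1 and Col1a2 turned to -0.056, -0.21 and -0.17, and without the sham thalamus library of rat 34 they were 0.27, 0.83 and 1.03. Other pseudocounts, a mean of at least 50, TMM, unnamed loci, summed loci and edgeR (23, 8, 1 and 24 collagens) kept each count within 1.5 times. The fit without the libraries of rats 45 and 34, edgeR and the blocked fit without rats 45 and 34 were chosen after seeing the data. The cause of these shifts was not tested. What depth limits was not tested; Col10a1 and Col6a4, under a mean of 10, were not tested at all.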
